A study of Homo sapiens with 6 samples.

Results

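The zinc finger genes of human chromosome 19 were examined in A549 cells with raised APEX1. The members are the rows of the gene tables marked protein-coding, placed on chromosome 19 and carrying a symbol made of ZNF, a number and at most 1 further letter. There are 231 such genes among the 32192 genes of the count table, and among its 1333 protein-coding genes of the chromosome. The rule itself used names and positions only. Every gene of the count table had at least 1 read in these libraries, so genes without any read are not among the members. A549 is an established line of human lung adenocarcinoma cells. It was transiently transfected with the pIRES-hrGFP-1a plasmid carrying FLAG-tagged APEX1 (APEX1-OE, n = 3 libraries) or with the control plasmid (Ctrl, n = 3 libraries), and polyadenylated RNA was sequenced. APEX1 is the main enzyme that cuts DNA at abasic sites. The sources do not state that the libraries of a group came from separate cultures, so p-values measure only the spread between these libraries, which may be technical.

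The encoded proteins read DNA with tandem C2H2 fingers, each a short loop folded around a zinc ion by a pair of cysteines and a pair of histidines. Most carry a KRAB box near the amino end, which recruits the scaffold TRIM28 and, through it, the histone methyltransferase SETDB1 and heterochromatin proteins. The best known targets are transposable elements, and the genes themselves arose by repeated tandem duplication, which left them in clusters along the chromosome.

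All 231 identifiers were found in GENCODE release 44 on GRCh38, and 229 members had a coding Ensembl-canonical transcript. In the translated coding sequences a pattern search found a KRAB A box in 197 members and none in 32. A SCAN box, which pairs such proteins with one another, was found in 3 members, ZNF444, ZNF446 and ZNF274. Fingers were counted by the pattern of 2 residues between the cysteines, 12 between cysteine and histidine, and 3 to 5 between the histidines. The median was 12 fingers per protein, 13 with a KRAB A box and 8.5 without one. ZNF208 had 36, the most of all members, and ZNF321P had 0.

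The finger is the unit that the members share, and the order of the libraries in their counts went with base composition. The coding bases of the first match to the pattern are therefore shown for 6 members of differing GC content, which are not listed in order of it. Each is 63 bases long, read 5′ to 3′ from GRCh38 on the strand of the gene, with the codons of the cysteines and histidines in capitals. ZNF787 (chr19:56088908-56088970, minus strand) and ZNF444 (chr19:56159758-56159820, plus strand) stand for highly expressed members with no KRAB A box.
ZNF787: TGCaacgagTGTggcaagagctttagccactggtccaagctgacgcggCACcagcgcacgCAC
ZNF444: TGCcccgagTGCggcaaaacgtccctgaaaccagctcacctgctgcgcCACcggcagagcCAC
ZNF304 (chr19:57356140-57356202, plus strand) and ZNF146 (chr19:36236492-36236554, plus strand) are members with known roles, with and without a KRAB A box.
ZNF304: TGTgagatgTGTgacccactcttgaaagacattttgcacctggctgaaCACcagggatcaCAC
ZNF146: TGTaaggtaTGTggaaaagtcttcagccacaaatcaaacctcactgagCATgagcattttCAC
ZNF555 (chr19:2852585-2852647, plus strand) and ZNF738 (chr19:21383162-21383224, plus strand) had the smallest unadjusted p-values for a difference between the groups.
ZNF555: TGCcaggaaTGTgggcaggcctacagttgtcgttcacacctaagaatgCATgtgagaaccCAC
ZNF738: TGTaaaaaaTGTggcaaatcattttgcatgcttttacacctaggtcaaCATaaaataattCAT
The GC content of these stretches was 61.9% for ZNF787, 66.7% for ZNF444, 49.2% for ZNF304, 41.3% for ZNF146, 52.4% for ZNF555 and 28.6% for ZNF738. The same frame of cysteines and histidines was thus written with widely different base composition. Over the whole canonical transcripts, GC content had a median of 41.9% in members with a KRAB A box and 62.4% in those without one.

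The deposited tables held raw read counts and FPKM, in which fragments are scaled by transcript length and by mapped depth. Total counts lay between 28131955 and 41009197 per library. The overexpression was seen in every library: APEX1 (ENSG00000100823.11) stood at 617.5, 680.3 and 768.2 FPKM in APEX1-OE replicates 1 to 3 and at 128.8, 126.3 and 123.8 FPKM in Ctrl. Its log2 fold change was 2.42 (SE 0.17, adjusted p = 0.00809 by the quasi-likelihood test of edgeR, Benjamini-Hochberg adjusted), and plasmid and chromosomal transcripts were not separated. With replicate 2 or 3 of APEX1-OE, or replicate 1 or 2 of Ctrl, left out, its adjusted p by edgeR lay between 0.0674 and 0.210. The epithelial keratins KRT8 and KRT18 had group means between 2410.2 and 3069 FPKM. KRT19 had group means of 90.9 FPKM in APEX1-OE and 85.8 FPKM in Ctrl, and CDH1 of 7.73 and 8.22 FPKM. EPCAM, also an epithelial marker, had only 0.37 and 0.32 FPKM. The fibroblast marker COL1A1 lay above EPCAM, at 0.57 and 0.63 FPKM, and DCN lay at 0.090 and 0.097 FPKM. The endothelial markers PECAM1 and CDH5 had group means of at most 0.027 FPKM. The alveolar type II markers NKX2-1, SFTPB and SFTPC had group means of at most 0.050 FPKM, and the leukocyte marker PTPRC had 1 read in 1 library and 0 in the others. On the first principal component of the genes that are no members (72.6% of the variance), APEX1-OE replicate 1 lay with Ctrl replicates 1 and 2, and Ctrl replicate 3 lay with APEX1-OE replicates 2 and 3. The libraries therefore stood apart in a way that the labels of the groups do not give, and results are also given with this split of the libraries as a term. The split was taken from the counts of these same libraries, so standard errors and p-values of that fit may be too small. An unadjusted p under 0.05 by edgeR was seen for 11.6% of all tested genes with the split and for 0.695% without it.

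Most members were expressed at low levels. Of the 228 members in the FPKM table, 62 had a mean of 1 FPKM or more over the 6 libraries, and the median of the means was 0.403 FPKM, against 0.973 FPKM for 253 ZNF genes of other chromosomes. This median was 4.10 FPKM for 1100 other protein-coding genes of chromosome 19. Over all 31951 genes with FPKM, coding or not, it was 0.232 FPKM, below that of the members. The filter on low counts (edgeR's filterByExpr) passed 176 members, and the 55 that did not pass had at most 19 reads in any library. A total of 10 reads or fewer over all libraries was seen for 31 members, and 43 had a count of 0 in at least 1 library. In these bulk samples, fewer cells that transcribe a gene and less RNA per cell cannot be told apart.

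The highest levels belonged to members with no KRAB A box. The 6 with the highest mean FPKM, ZNF428, ZNF787, ZNF444, ZNF581, ZNF580 and ZNF579, held 42.0% of the summed mean FPKM of the members. All had GC-rich transcripts, of which that of ZNF428 was at 60.2% and that of ZNF787 at 70.4%.
ZNF428 (ENSG00000131116.11, chr19:43607224-43619629, minus strand), with a single match to the finger pattern, stood at 54.4, 41.1 and 38.3 FPKM in APEX1-OE and at 55.5, 51.4 and 38.8 FPKM in Ctrl. The highest libraries were APEX1-OE replicate 1 and Ctrl replicate 1, and the groups overlapped. ZNF787 (ENSG00000142409.5, chr19:56087366-56121295, minus strand) stood at 50.1, 33.6 and 24.5 FPKM in APEX1-OE and at 37.5, 37.1 and 25.2 FPKM in Ctrl. For ZNF444 (ENSG00000167685.14), a SCAN box protein with 4 fingers, the values were 40.8, 25.9 and 23.4 FPKM in APEX1-OE and 32.4, 33.8 and 22.5 FPKM in Ctrl. Both had the highest value in APEX1-OE replicate 1 and low values in APEX1-OE replicate 3 and Ctrl replicate 3.

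ZNF581, ZNF580 and ZNF579 lie close together and had nearly the same order of libraries. ZNF579 had a mean of 17.6 ± 4.92 FPKM (SD, n = 3) in APEX1-OE and 16.7 ± 3.61 FPKM (SD, n = 3) in Ctrl. ZNF580 (19.8 ± 4.60 against 20.3 ± 3.96 FPKM, SD, n = 3 each) and ZNF581 (24.0 ± 6.78 against 22.7 ± 4.29 FPKM, SD, n = 3 each) overlap on the plus strand, from 55635016 to 55643470 and from 55635459 to 55645623. The assignment of reads in their shared stretch is not stated, so the level of each is uncertain. ZNF428 overlaps exons of an antisense gene over 17.7% of its transcript, and the use of strand in counting is not stated either. For the 6 genes the log2 fold changes lay between -0.12 for ZNF428 and 0.13 for ZNF787, well inside their standard errors of 0.28 and 0.36.

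**Figure D1:**
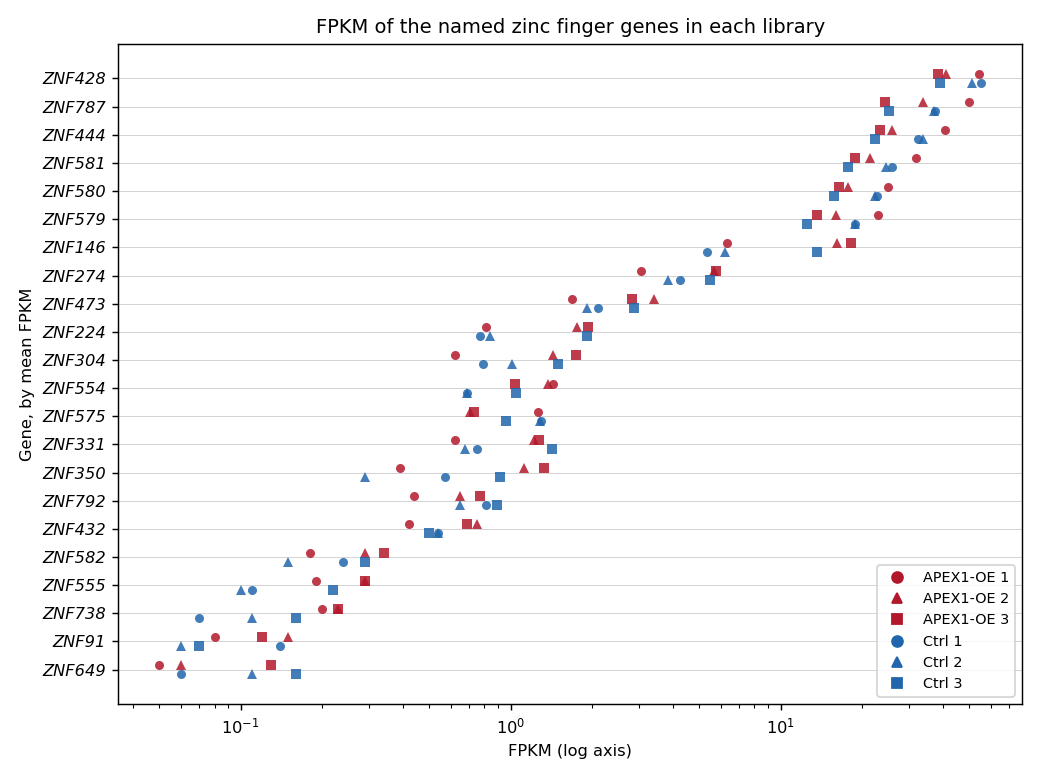
FPKM (log axis) of the named members in each of the 6 libraries, with 1 point per library, genes ordered by mean FPKM, and shapes marking the replicate number. ZNF93 and ZNF677, near 0, are left out; in the 6 genes at the top APEX1-OE replicate 1 was high and in ZNF146 it was low, and the groups overlapped for all genes but ZNF738.

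Of the named members, ZNF93 and ZNF91 are known to silence transposable elements, and both were low. ZNF93, which represses LINE-1 elements, had counts of 1, 0 and 0 in APEX1-OE and 0 in each Ctrl library. ZNF91, which represses SVA elements, had counts of 17, 42 and 29 in APEX1-OE and 28, 15 and 18 in Ctrl. Both lie in the pericentromeric stretch of the chromosome where most members were low, and only ZNF91 passed the filter (log2 fold change 0.35, SE 0.40). ZNF677, known to be silenced by DNA methylation in lung tumours, had counts of 1, 2 and 6 in APEX1-OE and 0, 1 and 2 in Ctrl, too few for the test. ZNF582, a gene methylated in cervical cancer, stood at 0.18, 0.29 and 0.34 FPKM in APEX1-OE and at 0.24, 0.15 and 0.29 FPKM in Ctrl.

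Members with roles in chromatin and RNA processing were expressed at a few FPKM or less. ZNF274 (ENSG00000171606.17), which binds the ends of other zinc finger genes and brings SETDB1 to them, stood at 3.05, 5.68 and 5.75 FPKM in APEX1-OE and at 4.26, 3.82 and 5.48 FPKM in Ctrl. ZNF473, the U7 snRNP factor of histone mRNA 3′-end formation, stood at 1.69, 3.39 and 2.82 FPKM in APEX1-OE and at 2.10, 1.92 and 2.86 FPKM in Ctrl. In both genes APEX1-OE replicate 1 was the lowest library and the groups overlapped. Their log2 fold changes were 0.06 (SE 0.26) and 0.17 (SE 0.27). They were -0.11 and -0.0037 with the split as a term.

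ZNF146, a protein made almost wholly of fingers, is encoded by an AT-rich transcript (38.9% GC) and was the member with the highest level among those with a transcript GC under 45%. It stood at 6.31, 16.2 and 18.3 FPKM in APEX1-OE and at 5.36, 6.24 and 13.7 FPKM in Ctrl. APEX1-OE replicate 1 lay beside the low Ctrl replicates 1 and 2, and Ctrl replicate 3 lay near the high APEX1-OE libraries. The libraries that were low here were thus the high ones in ZNF787 and ZNF444, though the order within each side was not inverted. Its log2 fold change was 0.66 (SE 0.42), and 0.28 with the split as a term.

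The members tied to repression of single genes were low in the same libraries as ZNF146. ZNF304, a KRAB protein that brings silencing complexes to tumour suppressor genes, stood at 0.62, 1.44 and 1.74 FPKM in APEX1-OE and at 0.79, 1.01 and 1.50 FPKM in Ctrl. ZNF350, a partner of BRCA1 in repression of GADD45A, stood at 0.39, 1.12 and 1.33 FPKM in APEX1-OE and at 0.57, 0.29 and 0.91 FPKM in Ctrl. ZNF224, a repressor of the aldolase A gene, stood at 0.81, 1.76 and 1.94 FPKM in APEX1-OE and at 0.77, 0.84 and 1.92 FPKM in Ctrl. In all 3 genes APEX1-OE replicate 1 and Ctrl replicates 1 and 2 were the lowest libraries, and the groups overlapped. Exons of an antisense gene cover 48.6% of the ZNF224 transcript, which leaves its reads uncertain. ZNF331, an imprinted gene, had a mean of 1.04 ± 0.36 FPKM (SD, n = 3) in APEX1-OE and 0.95 ± 0.41 FPKM (SD, n = 3) in Ctrl. ZNF432, a member that binds poly(ADP-ribose) at DNA damage, had a mean of 0.62 ± 0.18 FPKM (SD, n = 3) in APEX1-OE and 0.53 ± 0.023 FPKM (SD, n = 3) in Ctrl. The log2 fold changes of these 5 genes lay between 0.10 for ZNF331 and 0.65 for ZNF350. ZNF350 was at 0.27 with the split as a term, and ZNF224 at 0.014 in place of 0.33. With 1 library left out ZNF350 lay between 0.33 and 1.06 and ZNF224 between 0.10 and 0.80.

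No member passed the threshold for a difference between APEX1-OE and Ctrl. By the quasi-likelihood test of edgeR, Benjamini-Hochberg adjusted over 16971 genes, 0 of 176 members had an adjusted p under 0.05 (all genes 0.00589%, which is APEX1 alone), and the smallest adjusted p of a member was 0.99998. An unadjusted p under 0.05 was seen for 3 members by edgeR (all genes 0.695%) and for 2 by DESeq2 (all genes 0.404%), and none had a log2 fold change beyond 1 in size. Of the tested members 146 were higher and 30 lower in APEX1-OE, which is 83.0% higher against 57.5% of all tested genes. The median log2 fold change was 0.22 for the members, 0.03 for all tested genes, 0.16 for the 229 tested ZNF genes of other chromosomes and -0.01 for the 857 other tested protein-coding genes of chromosome 19.

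The size of this excess moved with the libraries. Without APEX1-OE replicate 1 the median of the members was 0.41, without Ctrl replicate 3 it was 0.44, and without Ctrl replicate 2 it was 0.13. Within the side that holds APEX1-OE replicate 1 and Ctrl replicates 1 and 2, the median difference of log2(CPM + 0.5) between the groups was 0.04. Within the other side, with APEX1-OE replicates 2 and 3 and Ctrl replicate 3, it was 0.09. With the split as a term the median log2 fold change was 0.08, with 119 members higher and 57 lower (all genes 51.6% higher). An offset for transcript GC and length gave 0.08, with 124 higher and 52 lower (all genes 50.6% higher). It was fitted over all tested genes, so their near-even share follows from the fit. The ZNF genes of other chromosomes had a like excess: 78.2% were higher in the pooled fit, 68.1% with the split and 71.2% with the offset, beside 83.0%, 67.6% and 70.5% of the members. The median of the members was thus 0.22 in the pooled fit and 0.08 in either of the others, and the source of the split was not tested. An unadjusted p under 0.05 by edgeR was seen for 23 of 179 members without APEX1-OE replicate 1 (all genes 7.61%), for 21 of 175 without Ctrl replicate 3 (all genes 3.47%) and for 3 of 177 without APEX1-OE replicate 3 (all genes 0.871%). It was seen for 0 members without APEX1-OE replicate 2 (all genes 0.383%), without Ctrl replicate 1 (all genes 0.466%) and without Ctrl replicate 2 (all genes 0.419%). In the other fits by edgeR it was seen for 8 members with the offset (all genes 3.45%) and for 9 of 231 with no filter on low counts (all genes 1.95%).

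The 3 members with the smallest unadjusted p among those higher in APEX1-OE were ZNF738, ZNF555 and ZNF554. ZNF738 (ENSG00000172687.13, chr19:21358930-21388582, plus strand), a KRAB member with 5 fingers, stood at 0.20, 0.23 and 0.23 FPKM in APEX1-OE and at 0.07, 0.11 and 0.16 FPKM in Ctrl. Every APEX1-OE library lay above every Ctrl library, on 8 to 38 reads per library. Its log2 fold change was 0.90 (SE 0.32, unadjusted p = 0.0215 by edgeR's quasi-likelihood test, adjusted p = 0.99998). Of the 100-base words of its transcript, 24.2% also occur in other genes, and reads that do not map uniquely were not counted.

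ZNF555 and ZNF554 are neighbours near the end of the short arm. ZNF555 (ENSG00000186300.11, chr19:2841437-2860471, plus strand), a KRAB member with 15 fingers, stood at 0.19, 0.29 and 0.29 FPKM in APEX1-OE and at 0.11, 0.10 and 0.22 FPKM in Ctrl. Ctrl replicate 3 exceeded APEX1-OE replicate 1 in FPKM, whereas after TMM scaling of the counts the groups did not overlap (2.28, 2.85 and 2.77 CPM against 1.19, 1.06 and 2.14 CPM). The log2 fold change was 0.84 (SE 0.32, unadjusted p = 0.0297 by edgeR). ZNF554 (ENSG00000172006.11, chr19:2819868-2836735, plus strand), a KRAB member with 7 fingers, stood at 1.44, 1.38 and 1.04 FPKM in APEX1-OE and at 0.69, 0.69 and 1.05 FPKM in Ctrl. APEX1-OE replicate 3 and Ctrl replicate 3 were nearly equal, and the log2 fold change was 0.67 (SE 0.28, unadjusted p = 0.0435 by edgeR). With the split as a term the log2 fold changes of ZNF738, ZNF555 and ZNF554 were 0.81, 0.66 and 0.67. These 3 genes thus moved little with the library split, but their adjusted p from that edgeR fit was at least 0.357. With the offset for transcript GC and length they were 0.67, 0.72 and 0.67 (unadjusted p = 0.127, 0.0106 and 0.0168 by edgeR). With 1 library left out ZNF738 lay between 0.67 and 1.15, ZNF555 between 0.64 and 1.23, and ZNF554 between 0.47 and 0.85.

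Groups of CPM that did not overlap were seen for 5 members higher in APEX1-OE (all genes 1.38%) and for 0 members lower (all genes 2.01%). The 5 were ZNF555, ZNF738, ZNF724P, ZNF426 and ZNF44, all with a KRAB A box, as have 149 of the 176 tested members. ZNF426 had the most reads of the 5, at 95, 169 and 142 in APEX1-OE and 79, 114 and 141 in Ctrl, and a log2 fold change of only 0.19. ZNF724P and ZNF44 had at most 26 and 21 reads in a library.

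The 3 members with the smallest unadjusted p among those lower in APEX1-OE were ZNF792, ZNF575 and ZNF649. ZNF792, a KRAB member with 12 fingers, stood at 0.44, 0.65 and 0.77 FPKM in APEX1-OE and at 0.81, 0.65 and 0.89 FPKM in Ctrl. ZNF575, without a KRAB A box, stood at 1.26, 0.71 and 0.73 FPKM in APEX1-OE and at 1.30, 1.29 and 0.96 FPKM in Ctrl. ZNF649, a KRAB member, had 6, 10 and 18 reads in APEX1-OE and 6, 15 and 23 reads in Ctrl. The groups overlapped in each. The log2 fold changes were -0.37 (SE 0.24), -0.39 (SE 0.36) and -0.43 (SE 0.47), with unadjusted p-values of 0.166, 0.311 and 0.385 by edgeR. They were -0.47 with the split as a term (unadjusted p = 0.0224 by edgeR, adjusted p = 0.374), -0.17 and -0.68. With 1 library left out ZNF575 lay between -0.84 and -0.20 and ZNF649 between -0.88 and -0.11.

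Across the libraries, members with and without a KRAB A box ran in opposite directions. As the deviation of log2(CPM + 0.5) from each gene's mean, the 149 tested KRAB members had medians of -0.27, 0.28 and 0.30 in APEX1-OE replicates 1 to 3 and -0.24, -0.26 and 0.21 in Ctrl replicates 1 to 3. The 27 tested members without a KRAB A box had medians of 0.50, -0.14 and -0.42 in APEX1-OE and 0.20, 0.18 and -0.35 in Ctrl. APEX1-OE replicate 1 and Ctrl replicates 1 and 2 were low for the KRAB members and high for the others. In 102 of the KRAB members (68.5%) all 3 libraries of APEX1-OE replicates 2 and 3 and Ctrl replicate 3 lay above the other 3, and in 20 of those without a KRAB A box (74.1%) they lay below. Over all tested genes the shares were 35.5% above and 30.9% below.

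Transcript GC content ran along the same split. Of the 24 tested members with a GC content over 55%, 20 have no KRAB A box and 4 have one, and in 22 of the 24 the libraries lay in the low order just given. The 4 KRAB members of that class had medians of 0.41 in APEX1-OE replicate 1 and -0.22 in APEX1-OE replicate 3, with the sign of the class without a KRAB A box. The 6 tested members with no KRAB A box and a GC content under 50%, ZNF146 among them, had medians of -0.35 and 0.57 in the same libraries, with the sign of the KRAB class. Other protein-coding genes showed the same order by GC content: under 45%, the medians were -0.50 in APEX1-OE replicate 1 and 0.47 in APEX1-OE replicate 3, and over 55% they were 0.39 and -0.29. The order was thus also seen outside the zinc finger genes, and the source of the GC dependence was not tested.

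**Figure D2:**
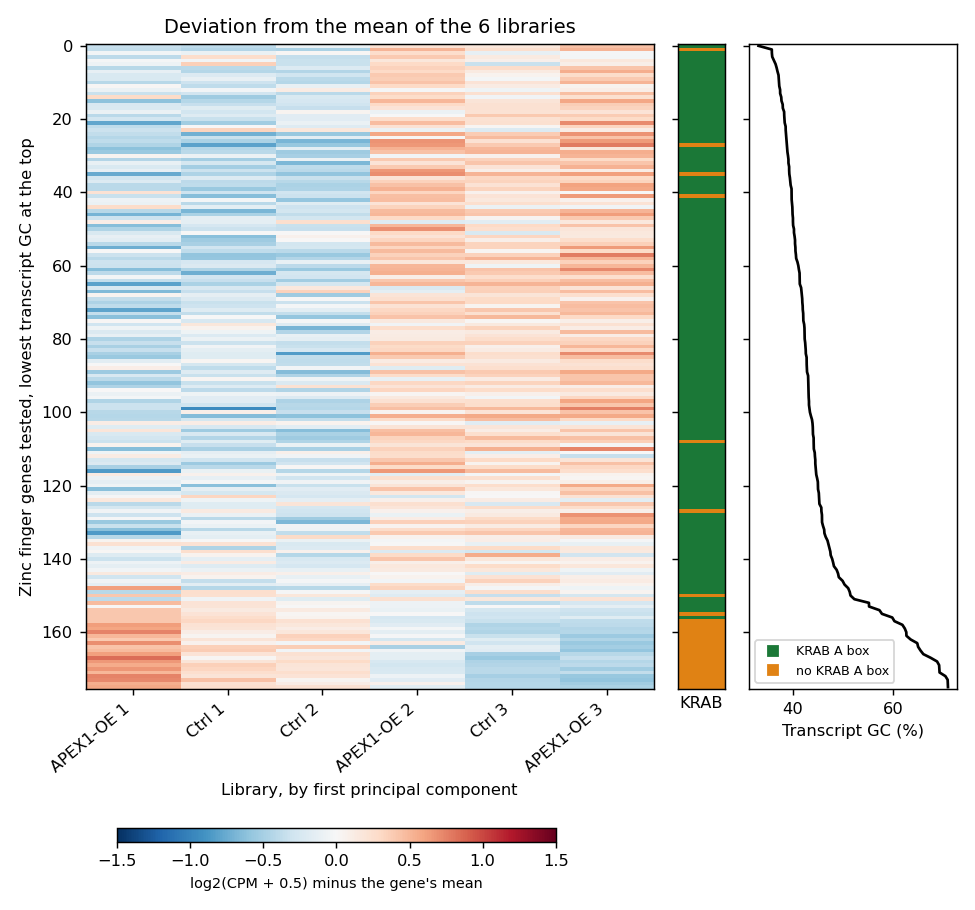
Deviation of log2(CPM + 0.5) from each gene's mean over the 6 libraries for the 176 tested members, 1 row per gene from the lowest transcript GC (top) to the highest (bottom), with the KRAB class and the GC content (%) beside each row. Libraries are ordered by the first principal component; the AT-rich rows turn from low to high from left to right and the GC-rich rows turn the other way.

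Fold changes between the groups differed by GC class in the fit with condition alone. The median log2 fold change was 0.30 for the 119 tested members with a GC content under 45%, 0.06 for the 33 between 45% and 55%, and 0.02 for the 24 over 55%. Other protein-coding genes under 45% had a median of 0.21, with 82.4% higher in APEX1-OE, against 91.6% of the members in that class. With the split as a term the members' medians were 0.07, -0.02 and 0.23, so that the GC-rich class then had the highest median. With the offset they were 0.10, 0.06 and 0.03. The other protein-coding genes under 45% then had medians of -0.07 with the split (32.4% higher) and 0.00057 with the offset (50.2% higher), beside 69.7% and 72.3% higher among the members of that class. The offset was fitted over all tested genes, so the near-even share of these other genes with the offset follows from the fit. Whether the members differ from them was not tested.

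By class of protein, KRAB members had a median log2 fold change of 0.25 with condition alone and 0.05 with the split as a term. Members without a KRAB A box had 0.07 and 0.23. The order of the classes was thus reversed between the fits, and 10 of the 17 members with an unadjusted p under 0.05 in the edgeR fit with the split as a term (9.66% of members, all genes 11.6%) had no KRAB A box. The same was seen outside the zinc finger genes: with the split, 1117 of 4436 other protein-coding genes with a GC content over 55% and 268 of 857 other chromosome 19 genes had an unadjusted p under 0.05. Their median log2 fold changes turned from -0.02 and -0.01 with condition alone to 0.16 and 0.17 with the split. Among the members, the smallest p in the fit with the split was that of ZNF296, picked after its values were seen. It stood at 8.51, 4.98 and 4.41 FPKM in APEX1-OE and 5.20, 5.69 and 3.72 FPKM in Ctrl. Its log2 fold change in that edgeR fit was 0.55 (SE 0.14, adjusted p = 0.316).

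**Figure D3:**
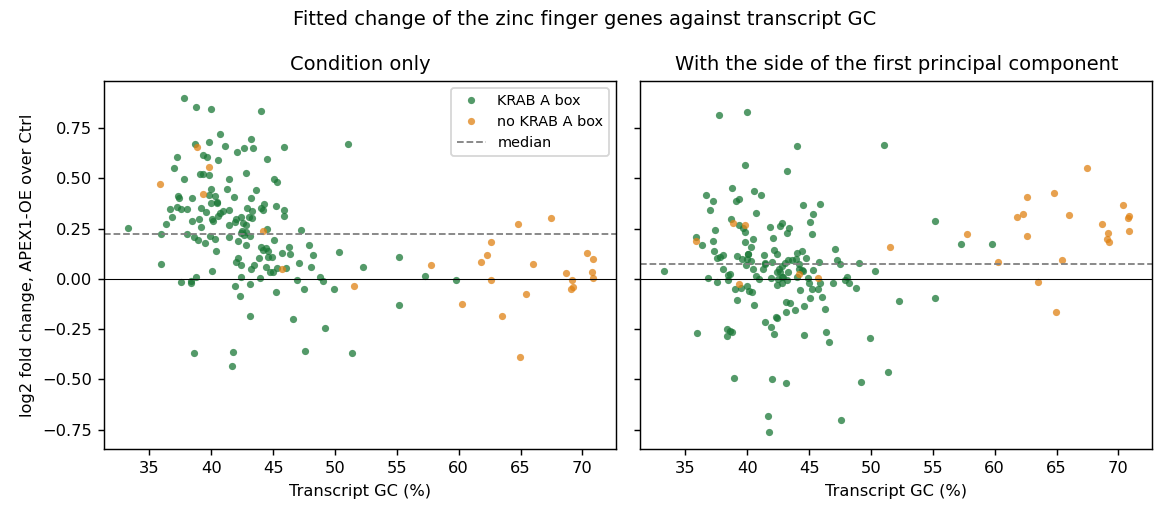
Log2 fold change of APEX1-OE over Ctrl from edgeR against transcript GC content (%) for the tested members, 1 point per gene, coloured by KRAB A box, with condition as the only term (left) and with the split of the libraries added (right). The dashed line is the median of the members, 0.22 on the left and 0.08 on the right.

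As a share of all counts, the members together took a small part of each library. The share was 0.166%, 0.171% and 0.162% in APEX1-OE and 0.150%, 0.146% and 0.161% in Ctrl, a mean of 0.166% ± 0.00472 against 0.152% ± 0.00803 (SD, n = 3 each). APEX1-OE replicate 3 and Ctrl replicate 3 were nearly equal, and the groups did not overlap. As a share of the summed FPKM the difference of the means was 0.0088 percentage points in place of 0.0141, and the groups overlapped. The KRAB members alone held 0.0522%, 0.0816% and 0.0840% in APEX1-OE and 0.0554%, 0.0537% and 0.0826% in Ctrl. The members without a KRAB A box held 0.114%, 0.0896% and 0.0777% in APEX1-OE and 0.0941%, 0.0922% and 0.0786% in Ctrl. Both classes overlapped between the groups, and only their sum did not. The classes deviated in opposite directions in each library, and why the sum did not overlap was not tested. The ZNF genes of other chromosomes held 0.358%, 0.396% and 0.366% in APEX1-OE and 0.336%, 0.334% and 0.370% in Ctrl, with overlap.

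**Figure D4:**
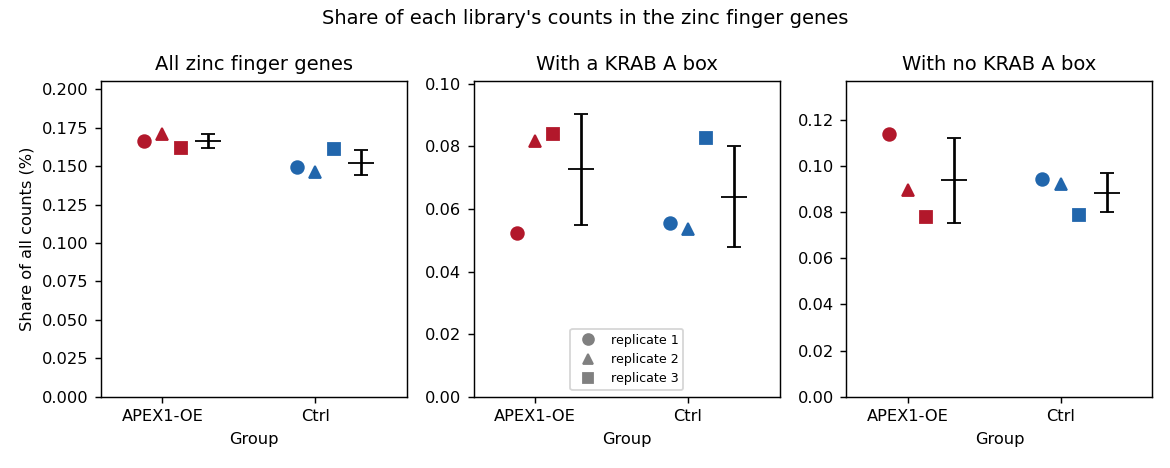
Share of each library's counts (%) in all members, in those with a KRAB A box and in those without one, by group, with 1 point per library, shapes for the replicate number, and the mean ± SD of 3 libraries beside the points. The KRAB and non-KRAB shares vary between libraries in opposite directions, and the summed share lies between 0.146% and 0.171%.

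Along the chromosome, 220 members fell into 9 clusters of at least 5 members (separated by gaps over 1 Mb), and 11 lay outside them. The levels differed widely between clusters. Cluster 4, from ZNF101 to ZNF254 (chr19:19668796-24129968), next to the centromere, holds 30 members, all with a KRAB A box, among them ZNF91, ZNF93 and ZNF738. Its median of the mean FPKM was 0.020, 13 of its members passed the filter, and its highest member, ZNF101, had a mean of 0.892 FPKM. Cluster 3, from ZNF653 to ZNF791 (chr19:11483427-12640098), was nearly as low, with a median of 0.046 FPKM and 9 of 21 members tested.

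Cluster 9, from ZNF628 to ZNF446 (chr19:55476617-58481230) at the end of the long arm, was the largest and had the highest median. It holds 59 members, of which 54 were tested, 33 had a mean of 1 FPKM or more and 15 have no KRAB A box, and its median was 1.36 FPKM. Cluster 7, from ZNF575 to ZNF296 (chr19:43525497-45076478), had all 24 members tested and a median of 0.507 FPKM. Cluster 8, from ZNF175 to ZNF331 (chr19:51571283-53580269), had 24 of 37 members tested and a median of 0.150 FPKM. ZNF428 lies in cluster 7 and the other 5 members with the highest levels in cluster 9.

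Median log2 fold changes by cluster lay between 0.07 for cluster 9 and 0.49 for cluster 1 (ZNF554 to ZNF77, 4 tested members, ZNF554 and ZNF555 among them). Cluster 6, from ZNF565 to ZNF573, had 0.42 with 20 of 21 tested members higher, cluster 5 (ZNF302 to ZNF792) had 0.37 with 3 of 5 higher, cluster 8 had 0.36 with 22 of 24 higher, and cluster 4 had 0.35 with 12 of 13 higher. With the split as a term these were 0.37 for cluster 1, 0.14 for cluster 6, -0.05 for cluster 5 with 1 of 5 higher, 0.10 for cluster 8, 0.21 for cluster 4 and 0.07 for cluster 9. Cluster 9 had the highest transcript GC median (46.0%) of the 9, and those of the others lay between 37.0% for cluster 4 and 45.8% for cluster 1. Clusters 2, 3 and 7, with GC medians of 42.8%, 42.0% and 42.7%, had median log2 fold changes of 0.19, 0.24 and 0.22, so that the order by GC content was not the order by fold change.

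**Figure D5:**
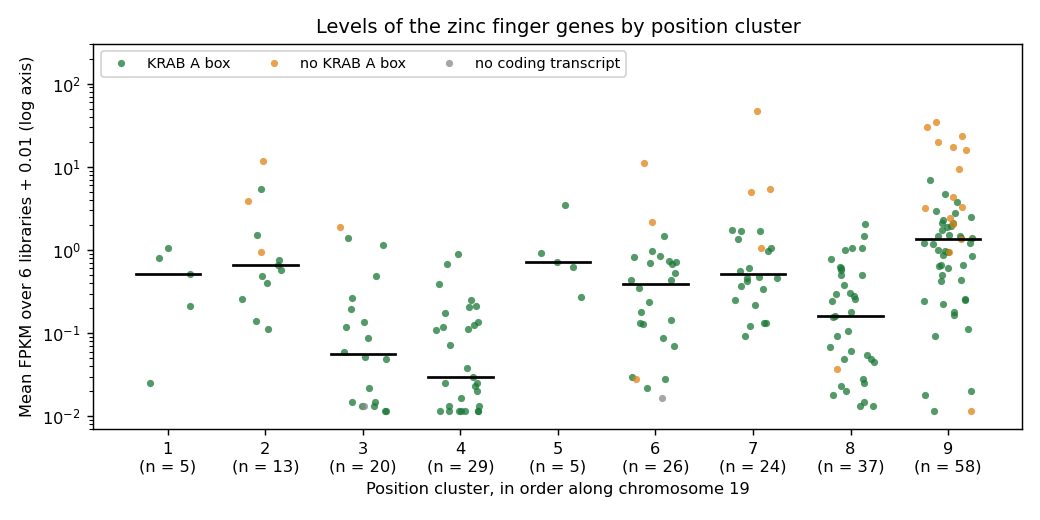
Mean FPKM over the 6 libraries plus 0.01 (log axis) of the members in each of the 9 position clusters, 1 point per gene coloured by KRAB A box, with a bar at the median and n giving the members in the FPKM table. Clusters 3 and 4 lie lowest, and the highest points, without a KRAB A box, lie in clusters 7 and 9.

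The partner genes of the KRAB system were measured beside the members. A list of 37 genes held TRIM28, SETDB1, heterochromatin proteins, subunits of the NuRD and HUSH complexes and histone or DNA methyltransferases. All 37 were tested, 28 were higher and 9 lower in APEX1-OE (all genes 57.5% higher), and 0 had an adjusted p under 0.05 by edgeR, with 0 at an unadjusted p under 0.05 (all genes 0.695%). Their median log2 fold change was 0.07. In the fit with the split 21 were higher and 16 lower, the median was 0.03, and 4 had an unadjusted p under 0.05 by edgeR (all genes 11.6%). Without APEX1-OE replicate 1 it was 5 genes (all genes 7.61%). TRIM28, itself a gene of chromosome 19 (chr19:58544064-58550722), stood at 226.6, 176.7 and 138.2 FPKM in APEX1-OE and at 193.8, 195.3 and 139.5 FPKM in Ctrl. Its order of libraries was that of the GC-rich members, and its log2 fold change was 0.04 (SE 0.30). SETDB1 stood at 3.86, 5.42 and 4.95 FPKM in APEX1-OE and at 4.51, 4.51 and 5.12 FPKM in Ctrl, with a log2 fold change of -0.02 (SE 0.20). The means of TRIM28 were 180.5 and 176.2 FPKM in APEX1-OE and Ctrl, whereas 37 of 194 KRAB members reached a mean of 1 FPKM over the libraries.

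Sequence shared with other genes limits these values. In 131 members no 100-base word of the canonical transcript occurs in the transcripts of another gene, and in 15 members more than 20% of the words do. Of the 15, 7 lie in cluster 3, among them ZNF709 and ZNF564 with 92.2% and 84.2%. Only uniquely mapped reads were counted, so some reads of such stretches may not have been assigned. Genes that overlap at the same place also share words, and such reads can still map uniquely to the genome. ZNF564 still had 32 to 96 reads per library. Exons of antisense genes cover more than 10% of the transcript in 16 members.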

How the data were processed

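RNA-seq of 3 APEX1-OE and 3 Ctrl libraries was analysed, grouped by the sample labels. The authors cleaned the reads (FASTX-Toolkit), mapped them with TopHat2 on GRCh38, and made the deposited counts and the deposited FPKM from uniquely mapped reads. The tool and annotation used for counting, and its use of strand, are not stated. The members, lists and tests were chosen with earlier results of these data known.

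Counts were filtered with filterByExpr (minimum count 10, minimum total 15), scaled by TMM and tested over all genes with edgeR 4.0.16 (quasi-likelihood, robust, condition only, Benjamini-Hochberg, threshold 0.05) in R 4.3.3. Levels are the FPKM as deposited. Alternatives used limma 3.58.1, DESeq2 1.42.0, other filters, each library left out, the replicate number, the side of the first principal component (computed without the members), and an offset from splines of transcript GC and length (5 degrees of freedom). GC content was available for 98.7% of tested genes. Fingers and boxes were searched in translated GENCODE 44 canonical coding sequences, since no protein table was at hand. FPKM values were missing for 3 members.

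Named members were those with known roles fixed by list, the 6 with the highest mean FPKM, the 3 with the smallest edgeR p in each direction, and called members, with APEX1, TRIM28 and SETDB1.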

Additional observations from a re-analysis of the deposited data

How the results depend on the processing

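Over 16 alternatives, 0 members and 0 co-repressor genes were called by edgeR, DESeq2 or limma, and the median log2 fold change of the members kept its sign. It lay between 0.13 and 0.44 with each library left out, at 0.23 with the replicate block, at 0.07 with limma on log2(FPKM + 1), at 0.08 with the split of the libraries as a term or with the GC and length offset, and at 0.07 with that offset and the replicate block. Over all genes edgeR called 1 with condition alone, 2 with the replicate block, 4 with the split and 10 without a filter. With the replicate block 14 members had an unadjusted p under 0.05 by edgeR (all genes 3.31%), against 3 without it. The sources do not state whether the replicate numbers pair the libraries. The deviations of same-numbered libraries correlated at 0.61, -0.52 and 0.70, and not every library correlated best with its own number. These correlations cannot decide it, since the deviations also hold the split of the libraries.

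APEX1, whose alternatives were chosen after seeing the data, lay between 2.36 and 2.46 with each library left out. Its adjusted p by edgeR was 0.118 and 0.0674 when replicate 2 or 3 of APEX1-OE was dropped, and 0.210 and 0.207 when replicate 1 or 2 of Ctrl was dropped, and the cause was not tested.

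Of 348 values for 22 named members, none past a threshold, 35 changed sign. With each library left out, the log2 fold change ranged from -0.051 to 0.23 for ZNF274, -0.088 to 0.42 for ZNF304, -0.027 to 0.33 for ZNF473, -0.075 to 0.44 for ZNF331, -0.41 to 0.024 for ZNF428, -0.32 to 0.38 for ZNF787, -0.39 to 0.23 for ZNF444, -0.30 to 0.28 for ZNF581, -0.37 to 0.12 for ZNF580 and -0.30 to 0.27 for ZNF579. With the split as a term it was -0.11 for ZNF274, -0.15 for ZNF304, -0.0037 for ZNF473, -0.15 for ZNF331, 0.083 for ZNF428 and 0.18 for ZNF580. With the offset it was -0.0034 for ZNF91, -0.048 for ZNF432 and 0.022 for ZNF580, with offset and replicate block -0.015 for ZNF432 and 0.022 for ZNF580, and with the replicate block alone -0.014 for ZNF444. The cause was not tested. Other named members kept their sign with each library left out, but some values moved by over 1.5 times. They were ZNF146 (0.42 to 1.12), ZNF91 (0.14 to 0.81), ZNF582 (0.0045 to 0.42) and ZNF432 (0.060 to 0.34). So did ZNF350 (0.33 to 1.06), ZNF224 (0.10 to 0.80), ZNF575 (-0.84 to -0.20) and ZNF649 (-0.88 to -0.11). Depth limits the 55 members that did not pass the filter on low counts.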

Other observations

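Another 16 rows of chromosome 19 carry a symbol that starts with ZNF and are no members, being antisense RNAs, pseudogenes or a readthrough. Group means were at most 0.95 FPKM. ZNF542P, a pseudogene, had a mean of 0.95 ± 0.24 FPKM (SD, n = 3) in APEX1-OE and 0.89 ± 0.13 FPKM (SD, n = 3) in Ctrl, and the antisense RNA ZNF529-AS1 had 0.91 ± 0.025 FPKM (SD, n = 3) and 0.89 ± 0.068 FPKM (SD, n = 3). Both were named after their values were seen.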
